A study of Canis lupus familiaris with 8 samples.

Results

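The 82 probe sets described here measure 41 genes for the enzymes of glycolysis, glycogen turnover, pyruvate entry and the citrate cycle, out of 6540 genes with a symbol and 23836 tested probe sets on the Affymetrix Canine Genome Array. They are all the probe sets whose annotation holds a single gene symbol of such an enzyme. The choice goes by name, but the list was drawn up with earlier results of these data known. Left ventricular RNA of 8 male mongrel dogs with a labelled weight of 23 to 27 kg was hybridized, 1 array per dog. Animals D5, D6, D7 and D8 form the control group and 0292, 0294, 1087 and 1111 the diabetic (DM) group, and all 8 had been instrumented by surgery. The DM dogs then received 40 to 60 mg/kg of alloxan, which destroys beta cells and so removes insulin, with a second injection in some of them, and their hearts were taken after 4 weeks. No sham injection of the control dogs is described, and ages are not given in the sources used here. The design text of the series counts 13 dogs of 22 to 29 kg, 7 normal and 6 diabetic, and the 8 arrays and their weight range are given here as in the sample labels.

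Glycolysis splits glucose into pyruvate in the cytosol, and in muscle several of its steps are run by muscle forms of the enzymes, such as PFKM, PGAM2 and ENO3. Pyruvate is reduced to lactate or enters mitochondria, where the pyruvate dehydrogenase complex turns it into acetyl-CoA for the citrate cycle, which feeds electrons to the respiratory chain. The heart takes most of its fuel from fatty acids, and a heart deprived of insulin is known to use less glucose.

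Values are given as log2 of the quantile normalized signal intensity plus 16. DM and control dogs were compared by limma over all 23836 probe sets with Benjamini-Hochberg adjustment. The value of a gene is that of its probe set with the highest mean over the 8 arrays. Each value measures 1 probe set, so the levels of different genes are not compared. The scanner's detection calls were not used here, and for orientation, in the lowest of 5 equal bins of probe sets the mean levels were 4.76 to 6.12. Several signs of the arrays and of the RNA differed along with the groups. The hybridization controls, transcripts added to every sample in fixed amounts, had mean deposited signals of 13.09 to 13.36 log2 in D5, D6 and D7, 15.77 in D8 and 15.17 to 17.71 in DM dogs (two-sided p = 0.0571 by an exact permutation test). The poly-A controls, added before labelling, averaged 5.67 ± 0.31 in control and 6.39 ± 0.55 in DM dogs (p = 0.0571 by the same exact test). For actin, the 3′ minus the 5′ log2 signal, which widens as RNA breaks down, was 1.56 to 3.30 in D5, D6 and D7, 6.61 in D8 and 3.58 to 7.33 in DM dogs (exact permutation p = 0.171). For GAPDH, itself one of the enzymes, that difference was 4.35 ± 1.12 in control and 1.76 ± 1.03 in DM dogs, with no overlap (exact permutation p = 0.0286). Its 3′ signal was 12.47 to 15.67 in control and 8.32 to 11.41 in DM dogs. A low 3′ signal narrows the difference too, so for GAPDH it does not measure RNA breakdown alone. The sample records of the control and DM arrays have titles of different form and lie in separate number ranges. No array batch or scan date is given in the sources used here, so a batch of arrays, if any, and the disease cannot be told apart. Of 7 cardiomyocyte markers 5 were measured and all 5 had lower means in DM dogs, 4 of them at an unadjusted p under 0.05 from limma. Of all probe sets 8.87% were lower at that p, and 17.4% of those in the brightest of the 5 bins. TNNI3, the cardiac troponin I, was at 15.44 ± 1.72 in control and 9.66 ± 1.45 in DM dogs. MYH7, the slow myosin heavy chain, was at 16.81 ± 0.05 and 16.24 ± 0.38. The mean of the 5 cardiomyocyte markers was 14.34 to 15.77 in control dogs and 11.58 to 13.59 in DM dogs. The mean of the 3 measured skeletal muscle markers was 5.09 to 5.99 in control and 6.59 to 8.01 in DM dogs. For 5 leukocyte markers it was 7.40 to 8.48 and 7.79 to 8.87, for 3 endothelial markers 9.44 to 11.10 and 8.57 to 10.92, and for 4 fibroblast markers 9.85 to 12.03 and 10.23 to 10.66. It was 10.17 to 10.72 and 9.05 to 10.34 for 3 smooth muscle markers, 5.74 to 7.90 and 5.28 to 7.44 for 2 adipocyte markers, and 6.15 to 8.05 and 7.08 to 9.22 for 2 liver markers. At the same p, 1 fibroblast and 1 smooth muscle marker were lower. Higher at that p were 2 skeletal muscle markers, 1 leukocyte and 1 liver marker, against 7.84% of all probe sets. Of the endothelial and adipocyte markers 0 passed. The part of these differences in the results was not tested. In such bulk tissue, fewer cardiomyocytes and less of an RNA per cell cannot be told apart.

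Of the 41 enzyme genes, 32 had a lower and 9 a higher mean in DM than in control dogs, with a median log2 fold change of -0.71, where the median of all tested probe sets was 0.06. The largest negative values belonged to IDH3B, GAPDH, PGAM2 and TPI1, with log2 fold changes of -4.66, -4.55, -4.51 and -4.13. At the other end, OGDH had 2.16 and LDHB 1.60. At an adjusted p under 0.05 from limma, 0 of the 82 probe sets passed, the smallest value being 0.0609, against a background of 0.0168% lower and 0% higher. At an unadjusted p under 0.05, 23 of the 82 probe sets (28.0%) were lower, against a background of 8.87%, and 1 was higher, against 7.84%. The DM dogs lay wholly below the control dogs in 19 probe sets (23.2%, background 5.85%) and wholly above them in 1 (background 4.93%). By the criteria of the methods, at least 2-fold at an unadjusted P no greater than 0.01, 11 were lower (13.4%, background 2.52%) and 0 higher (background 2.45%). The calls turned on the scaling, the offset and single arrays. With all 8 dogs, median centring gave 12 lower probe sets at an adjusted p under 0.05 (background 0.927%), an offset of 64 gave 14 (background 1.3%), array weights 16 (background 2.46%) and scaling to the hybridization controls 48 (background 32.2%), while cyclic loess, no offset and no quantile normalization gave 0. Without control dog D8, 10 probe sets were lower at an adjusted p under 0.05, for ENO3, GAPDH, IDH2, IDH3G, PGAM2, SUCLG1 and TPI1 (background 0.902%), and without DM dog 1111, 13 were lower (background 1.48%). Without D8 and 0292 together 13 were lower (background 2.02%), and 1, for SUCLG2, was higher (background 1.99%).

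**Figure D1:**
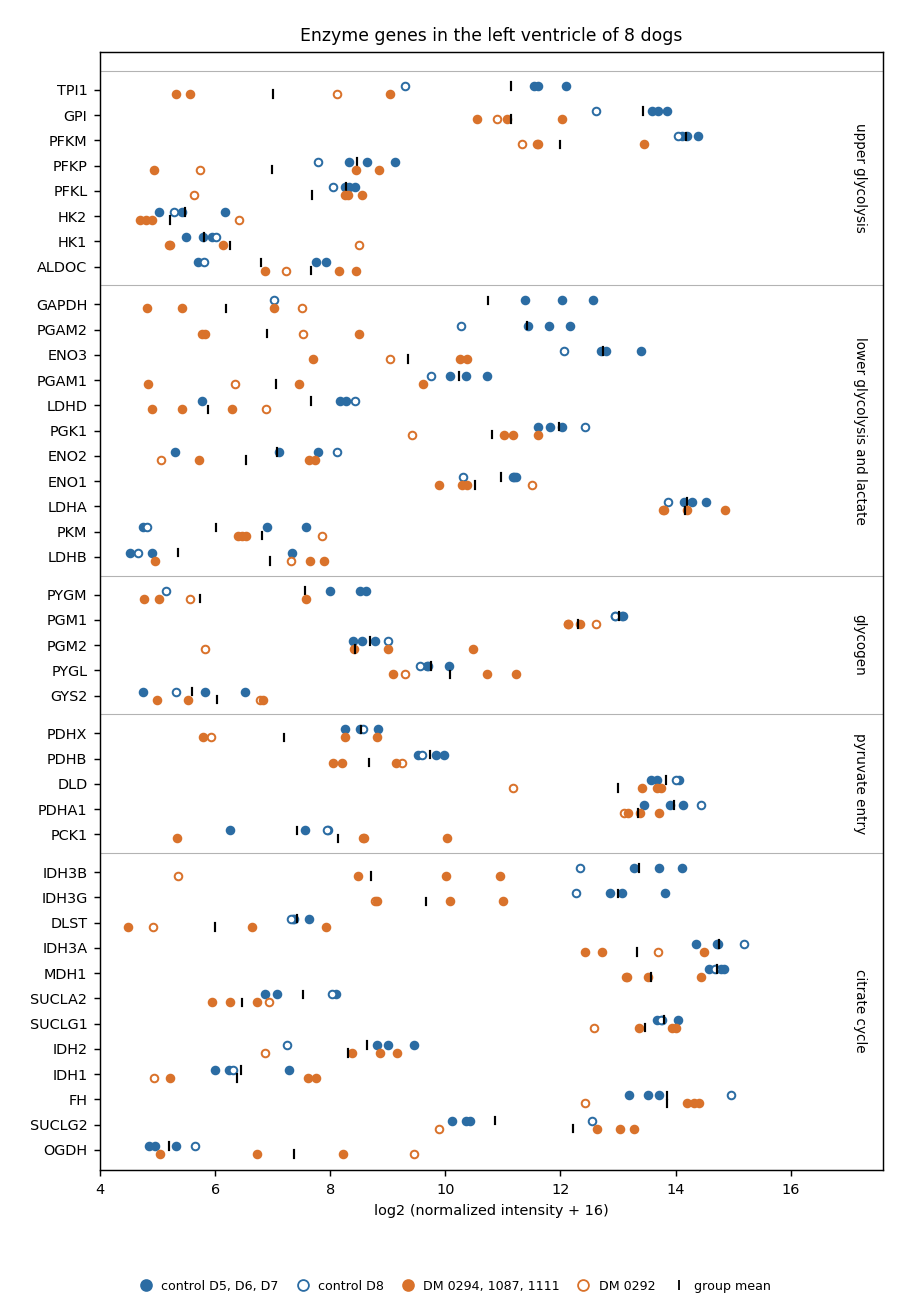
Log2 (normalized intensity + 16) of the 41 enzyme genes, 1 row per gene and 1 point per dog, in 5 groups by role. Blue points are the 4 control dogs and orange points the 4 DM dogs, open symbols are D8 and 0292, and black ticks are group means. In TPI1, PGAM2, ENO3 and IDH3G every DM point lies left of every control point, while the means of FH and LDHA nearly coincide.

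In upper glycolysis, which carries glucose to the triose phosphates, 6 of 8 genes had lower means in DM dogs. Of these 3, TPI1, GPI and PFKM, were lower at an unadjusted p under 0.05, against a background of 8.87% of all probe sets. TPI1, which interconverts the 2 triose phosphates, was at 11.61 in D5, 12.09 in D6, 11.54 in D7 and 9.30 in D8 among control dogs, and 8.12 in 0292, 5.32 in 0294, 5.56 in 1087 and 9.04 in 1111 among DM dogs. Every DM dog was below every control dog, and D8 was the lowest control. Its mean was 11.14 ± 1.25 in control and 7.01 ± 1.85 in DM dogs (± SD, 4 dogs each), a log2 fold change of -4.13 (SE 0.92, limma adjusted p = 0.0781). GPI, which turns glucose 6-phosphate into fructose 6-phosphate, was at 13.59 in D5, 13.84 in D6, 13.70 in D7 and 12.62 in D8 among control dogs, and 10.90 in 0292, 10.55 in 0294, 11.07 in 1087 and 12.02 in 1111 among DM dogs. The groups did not overlap, and the log2 fold change was -2.30 (SE 0.60, limma adjusted p = 0.0983). The other GPI probe set gave -2.68 (SE 0.73, limma adjusted p = 0.111), with D8 at 11.31 and 0292 at 11.32. PFKM, the muscle form of phosphofructokinase at the committed step, was at 14.39 in D5, 14.20 in D6, 14.11 in D7 and 14.05 in D8 among control dogs, and 11.32 in 0292, 11.61 in 0294, 11.59 in 1087 and 13.46 in 1111 among DM dogs. Here D8 lay with the other control dogs, and 1111 was the DM dog nearest to them. The log2 fold change was -2.19 (SE 0.62, limma adjusted p = 0.120), and the other 2 PFKM probe sets gave -3.54 (SE 0.88, limma adjusted p = 0.0913) and -2.97 (SE 0.67, limma adjusted p = 0.0826), all 3 with no overlap.

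The other forms of phosphofructokinase did not pass at an unadjusted p. PFKP, the platelet form, was at 8.63 in D5, 8.32 in D6, 9.12 in D7 and 7.79 in D8 among control dogs, and 5.74 in 0292, 4.93 in 0294, 8.85 in 1087 and 8.45 in 1111 among DM dogs. DM dogs 0292 and 0294 were low and the others lay among the control dogs, with a log2 fold change of -1.47 (SE 0.86, limma adjusted p = 0.412). PFKL, the liver form, had -0.58 (SE 0.70, limma adjusted p = 0.714), where 0292 was at 5.63 and the other DM dogs were at 8.25 to 8.54, against 8.04 to 8.43 in control dogs. ALDOC, the brain form of aldolase, had the largest positive value of the group. It was at 5.70 in D5, 7.92 in D6, 7.75 in D7 and 5.81 in D8 among control dogs, and 7.23 in 0292, 6.86 in 0294, 8.44 in 1087 and 8.15 in 1111 among DM dogs. The groups overlapped, and its log2 fold change was 0.87 (SE 0.71, limma adjusted p = 0.566). The hexokinases, which trap glucose in the cell, had weak probe sets in nearly all dogs, apart from 8.50 for HK1 in 0292. HK1 had control and DM means of 5.81 and 6.26, and HK2 of 5.48 and 5.21.

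In lower glycolysis, from glyceraldehyde 3-phosphate to lactate, 9 of 11 genes had lower means in DM dogs. PGAM2, ENO3, GAPDH, PGAM1 and LDHD were lower at an unadjusted p under 0.05, against a background of 8.87% of all probe sets. PGAM2, the muscle form of phosphoglycerate mutase, was at 11.80 in D5, 12.16 in D6, 11.44 in D7 and 10.26 in D8 among control dogs, and 7.52 in 0292, 5.83 in 0294, 5.77 in 1087 and 8.50 in 1111 among DM dogs. The lowest control dog, D8, was still above the highest DM dog, 1111. The mean was 11.42 ± 0.82 in control and 6.91 ± 1.34 in DM dogs (± SD, 4 dogs each), a log2 fold change of -4.51 (SE 0.75, limma adjusted p = 0.0609), or 22.8-fold lower on this scale. DM dogs 0294 and 1087 were at levels of the lowest bin of probe sets, so the size depends on the offset. The log2 fold change of PGAM2 was -4.79 without an offset and -3.96 with an offset of 64. PGAM1, the form found in most tissues, was at 10.37 in D5, 10.72 in D6, 10.07 in D7 and 9.75 in D8 among control dogs, and 6.35 in 0292, 7.46 in 0294, 4.83 in 1087 and 9.61 in 1111 among DM dogs. The groups did not overlap either, but 1111 came close to D8, and the log2 fold change was -3.17 (SE 0.87, limma adjusted p = 0.112). ENO3, the muscle enolase, was at 12.79 in D5, 13.40 in D6, 12.71 in D7 and 12.06 in D8 among control dogs, and 9.04 in 0292, 7.70 in 0294, 10.38 in 1087 and 10.26 in 1111 among DM dogs. All control dogs exceeded all DM dogs, with a log2 fold change of -3.39 (SE 0.70, limma adjusted p = 0.0670), and all 4 ENO3 probe sets had lower means (-3.60 to -1.63).

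GAPDH, which oxidizes glyceraldehyde 3-phosphate, was a gene in which D8 departed far from its group. Its probe set was at 12.03 in D5, 12.56 in D6, 11.38 in D7 and 7.02 in D8 among control dogs, and 7.51 in 0292, 5.42 in 0294, 7.03 in 1087 and 4.81 in 1111 among DM dogs. In D8 it was as low as in 1087 and below 0292, so the groups overlapped. The mean was 10.75 ± 2.53 in control and 6.19 ± 1.28 in DM dogs (± SD, 4 dogs each), with a log2 fold change of -4.55 (SE 1.09, limma adjusted p = 0.0884), and without D8 of -5.81 (adjusted p = 0.0222). The manufacturer's 3 control probe sets for GAPDH are not among the 82 and sample the 3′ end, the middle and the 5′ end of the transcript. At the 3′ end the signal was 12.47 in D8, 14.68 to 15.67 in the other control dogs and 8.32 to 11.41 in DM dogs, with no overlap (exact permutation test, two-sided p = 0.0286, the smallest that 4 dogs against 4 allow). In the middle it was 6.89 in D8, 11.36 to 12.58 in the other control dogs and 7.05 to 7.94 in DM dogs (p = 0.143, exact permutation test). At the 5′ end it was 6.51 in D8, 10.44 to 12.01 in the others and 6.83 to 8.77 in DM dogs (p = 0.171 by an exact permutation test). The low GAPDH level of D8 thus appeared in the middle and at the 5′ end and was smaller at the 3′ end.

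Other steps of lower glycolysis differed less. PGK1, the first enzyme of the path to make ATP, gave -1.17 (SE 0.63, limma adjusted p = 0.371), with the highest DM dog just under the lowest control dog. LDHA, the lactate dehydrogenase subunit of skeletal muscle, had 14.21 ± 0.28 in control and 14.16 ± 0.50 in DM dogs (± SD, 4 dogs each), a log2 fold change of -0.05 (SE 0.56, limma adjusted p = 0.974) with a 95% interval of -1.25 to 1.16. Its other probe set gave -1.97 (SE 1.03, limma adjusted p = 0.357), with 5.15 in 0292 and 9.64 to 10.91 in the other DM dogs. ENO1, the enolase of most tissues, had -0.46 (SE 0.59, limma adjusted p = 0.738) with a 95% interval of -1.73 to 0.82, and ENO2, the neuronal one, -0.54 (SE 0.81, limma adjusted p = 0.778). LDHD, which oxidizes D-lactate, had -1.78 (SE 0.74, limma adjusted p = 0.245). LDHB, the heart subunit of lactate dehydrogenase, was at 4.52 in D5, 4.91 in D6, 7.34 in D7 and 4.65 in D8 among control dogs, and 7.31 in 0292, 7.65 in 0294, 4.95 in 1087 and 7.90 in 1111 among DM dogs. The control dogs D5, D6 and D8 and DM dog 1087 were at the bottom of the scale and the other 4 dogs above it, and the log2 fold change was 1.60 (SE 0.83, limma adjusted p = 0.354). A pair of probe sets name LDHB beside other genes and were left out by the single-symbol choice. PKM, pyruvate kinase of muscle, had weak values too, with control and DM means of 6.01 and 6.81.

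Among 5 genes of glycogen turnover, 0 were lower or higher at an unadjusted p under 0.05 from limma by their brightest probe set. Of their 12 probe sets 1, the second of PGM1, was lower, where 8.87% of all probe sets were lower and 7.84% higher. PYGM, the muscle phosphorylase that breaks glycogen down, was at 8.52 in D5, 8.62 in D6, 8.0 in D7 and 5.14 in D8 among control dogs, and 5.57 in 0292, 5.02 in 0294, 7.58 in 1087 and 4.77 in 1111 among DM dogs. D8 was as low as the DM dogs, and 1087 was the DM dog nearest to the other control dogs, with a log2 fold change of -1.84 (SE 0.88, limma adjusted p = 0.312). PGM1, which links glucose 1-phosphate to glycolysis, was at 12.96 in D5, 13.09 in D6, 13.07 in D7 and 12.94 in D8 among control dogs, and 12.61 in 0292, 12.13 in 0294, 12.13 in 1087 and 12.34 in 1111 among DM dogs. Its dogs differed little within each group and did not overlap, with 13.01 ± 0.07 in control and 12.30 ± 0.23 in DM dogs (± SD, 4 dogs each). The log2 fold change was -0.71 (SE 0.53, limma adjusted p = 0.530). Its second probe set had -1.36 (SE 0.56, limma adjusted p = 0.245), also with no overlap, and the remaining one 0.25 (SE 0.66, limma adjusted p = 0.881). PGM2 had -0.25 (SE 0.84, limma adjusted p = 0.909). PYGL, the liver phosphorylase, was at 9.67 in D5, 9.70 in D6, 10.06 in D7 and 9.56 in D8 among control dogs, and 9.29 in 0292, 9.09 in 0294, 11.23 in 1087 and 10.72 in 1111 among DM dogs. The DM dogs spread to both sides of the control dogs, with a log2 fold change of 0.34 (SE 0.64, limma adjusted p = 0.829), and all 4 PYGL probe sets had higher means (0.04 to 1.47). The first turned to -0.21 with median centring, to -2.005 with arrays scaled to the hybridization controls and to -0.06 without 1087. GYS2, the glycogen synthase of liver, was at 6.51 in D5, 4.74 in D6, 5.83 in D7 and 5.32 in D8 among control dogs, and 6.78 in 0292, 6.83 in 0294, 5.53 in 1087 and 4.99 in 1111 among DM dogs. These weak values overlapped, with 0.43 (SE 0.66, limma adjusted p = 0.780).

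The genes that admit pyruvate to mitochondria or send carbon back towards glucose had 0 of 9 probe sets lower or higher at an unadjusted p under 0.05. Of all probe sets 8.87% were lower and 7.84% higher, so 0 of so few is near the background. PDHB, the beta subunit of pyruvate dehydrogenase, was at 9.98 in D5, 9.84 in D6, 9.53 in D7 and 9.60 in D8 among control dogs, and 9.25 in 0292, 9.14 in 0294, 8.06 in 1087 and 8.21 in 1111 among DM dogs. The highest DM dog, 0292, was below the lowest control dog, D7, and the log2 fold change was -1.07 (SE 0.57, limma adjusted p = 0.367). PDHA1, the alpha subunit, was at 13.90 in D5, 14.13 in D6, 13.45 in D7 and 14.44 in D8 among control dogs, and 13.11 in 0292, 13.72 in 0294, 13.18 in 1087 and 13.39 in 1111 among DM dogs. The groups overlapped, and the log2 fold change was -0.63 (SE 0.55, limma adjusted p = 0.597), with a 95% interval of -1.82 to 0.56. PDHX, which anchors DLD in the complex, was at 8.51 in D5, 8.83 in D6, 8.25 in D7 and 8.56 in D8 among control dogs, and 5.92 in 0292, 8.26 in 0294, 8.81 in 1087 and 5.78 in 1111 among DM dogs. DM dogs 0292 and 1111 were low and the others lay with the control dogs, which gave -1.35 (SE 0.75, limma adjusted p = 0.387). DLD, which reoxidizes lipoamide here and in the oxoglutarate complex, was at 13.67 in D5, 14.06 in D6, 13.57 in D7 and 14.01 in D8 among control dogs, and 11.17 in 0292, 13.74 in 0294, 13.41 in 1087 and 13.68 in 1111 among DM dogs. Only 0292 lay clearly below the others, and the difference was -0.83 (SE 0.67, limma adjusted p = 0.566). PCK1, which makes phosphoenolpyruvate for glucose synthesis in liver, was at 6.26 in D5, 7.56 in D6, 7.97 in D7 and 7.94 in D8 among control dogs, and 8.58 in 0292, 8.58 in 0294, 10.03 in 1087 and 5.33 in 1111 among DM dogs. The DM dogs held both the highest and the lowest value, with a difference of 0.70 (SE 0.89, limma adjusted p = 0.732).

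Of 12 citrate cycle genes 10 had lower means in DM dogs, and 3 were lower at an unadjusted p under 0.05 (background 8.87% of all probe sets). These are the 3 subunits of the NAD-dependent isocitrate dehydrogenase. IDH3G, a regulatory subunit, was at 13.07 in D5, 13.81 in D6, 12.86 in D7 and 12.27 in D8 among control dogs, and 8.77 in 0292, 10.08 in 0294, 8.81 in 1087 and 11.01 in 1111 among DM dogs. The lowest control dog, D8, exceeded the highest DM dog, 1111. The mean was 13.0 ± 0.64 in control and 9.67 ± 1.08 in DM dogs (± SD, 4 dogs each), with a log2 fold change of -3.34 (SE 0.67, limma adjusted p = 0.0651), and all 5 probe sets of the gene had lower means (-3.86 to -1.35). IDH3B, the other regulatory subunit, was at 13.72 in D5, 14.12 in D6, 13.27 in D7 and 12.35 in D8 among control dogs, and 5.36 in 0292, 8.48 in 0294, 10.01 in 1087 and 10.94 in 1111 among DM dogs. The groups did not overlap, and the DM dogs were spread widely, with 0292 lowest. The mean was 13.36 ± 0.76 in control and 8.70 ± 2.45 in DM dogs (± SD, 4 dogs each), with a log2 fold change of -4.66 (SE 1.01, limma adjusted p = 0.0749), or 25.3-fold lower on this scale. In 0292 the value was at a level of the lowest bin of probe sets. The log2 fold change was -3.70 without 0292 and -5.33 without 1111, so the size rests on single dogs. It was -4.86 without an offset and -4.32 with an offset of 64. Its other probe set, with a lower signal, had -0.09 (SE 0.73, limma adjusted p = 0.963). IDH3A, the catalytic subunit, was at 14.73 in D5, 14.35 in D6, 14.71 in D7 and 15.19 in D8 among control dogs, and 13.69 in 0292, 12.43 in 0294, 12.73 in 1087 and 14.49 in 1111 among DM dogs. DM dog 1111 lay within the control range, and the log2 fold change was -1.41 (SE 0.62, limma adjusted p = 0.276). A second IDH3A probe set had -2.88 (SE 0.69, limma adjusted p = 0.0884) with no overlap, and 2 weaker ones -0.49 and 0.01.

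OGDH, the first enzyme of the oxoglutarate complex, was the only gene of the 41 with a higher mean at an unadjusted p under 0.05. It was at 4.85 in D5, 4.96 in D6, 5.32 in D7 and 5.65 in D8 among control dogs, and 9.46 in 0292, 5.03 in 0294, 8.22 in 1087 and 6.73 in 1111 among DM dogs. The control dogs and 0294 were at levels of the lowest bin of probe sets, and the other DM dogs above them, with a log2 fold change of 2.16 (SE 0.84, limma adjusted p = 0.222). DLST, the second enzyme of that complex, had -1.43 (SE 0.75, limma adjusted p = 0.364). IDH2, the mitochondrial NADP-dependent isocitrate dehydrogenase, had 2 probe sets that differed. The brighter had -0.32 (SE 0.70, limma adjusted p = 0.854). The other was at 10.83 in D5, 11.18 in D6, 9.87 in D7 and 4.96 in D8 among control dogs, and 5.56 in 0292, 5.27 in 0294, 6.15 in 1087 and 5.42 in 1111 among DM dogs. There D8 lay below all DM dogs, and the log2 fold change was -3.61 (SE 1.11, limma adjusted p = 0.139), and without D8 of -5.04 (adjusted p = 0.0178). IDH1, its cytosolic counterpart, had -0.07 (SE 0.75, limma adjusted p = 0.971).

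SUCLG1, the common subunit of succinyl-CoA ligase, showed the same split between probe sets. The brightest was at 13.68 in D5, 14.05 in D6, 13.76 in D7 and 13.75 in D8 among control dogs, and 12.58 in 0292, 13.94 in 0294, 14.01 in 1087 and 13.36 in 1111 among DM dogs. The groups overlapped, with -0.34 (SE 0.57, limma adjusted p = 0.808) and a 95% interval of -1.57 to 0.90. A weaker one was at 10.62 in D5, 11.05 in D6, 10.01 in D7 and 4.80 in D8 among control dogs, and 4.66 in 0292, 5.15 in 0294, 5.42 in 1087 and 7.86 in 1111 among DM dogs. There D8 fell within the DM range, with -3.35 (SE 1.21, limma adjusted p = 0.195). The remaining one gave -1.19 (SE 0.61, limma adjusted p = 0.346). SUCLA2, the partner subunit for ADP, had -1.06 (SE 0.59, limma adjusted p = 0.385), and SUCLG2, the partner for GDP, had 1.35 (SE 0.84, limma adjusted p = 0.443), with D8 at 12.56 and the other control dogs at 10.12 to 10.43. FH, the fumarase, was at 13.53 in D5, 13.72 in D6, 13.20 in D7 and 14.97 in D8 among control dogs, and 12.43 in 0292, 14.20 in 0294, 14.42 in 1087 and 14.32 in 1111 among DM dogs. Dog 0292 was the lowest of all, the other DM dogs were above D5, D6 and D7 and below D8, and the log2 fold change over all dogs was -0.01 (SE 0.67, limma adjusted p = 0.995), with a 95% interval of -1.45 to 1.43. MDH1, the cytosolic malate dehydrogenase, was at 14.85 in D5, 14.78 in D6, 14.57 in D7 and 14.69 in D8 among control dogs, and 13.16 in 0292, 13.53 in 0294, 13.14 in 1087 and 14.45 in 1111 among DM dogs. DM dog 1111 was just below D7, the lowest control dog, and the log2 fold change was -1.15 (SE 0.56, limma adjusted p = 0.325).

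Of the 22 genes with more than 1 probe set, 9 had lower means in all of them, 3 (GYS2, PCK1 and PYGL) higher means in all, and 10 had both. The 10 with both are DLST, IDH3A, PDHA1, PFKL, PGK1, PGM1, PKM, PYGM, SUCLG2 and TPI1. TPI1 was the most divided, with -4.13 in 1 probe set and 1.61 (SE 0.90, limma adjusted p = 0.388) in the other. The latter was at 4.94 in D5, 4.83 in D6, 4.60 in D7 and 5.12 in D8 among control dogs, and 5.96 in 0292, 9.67 in 0294, 5.13 in 1087 and 5.18 in 1111 among DM dogs. Its groups did not overlap, but D8 and 1087 nearly met and 0294 alone stood high. The 4 DLST probe sets had -1.43, -0.13, 0.30 and 0.88, and the 4 of PDHA1 -0.63, -0.49, 0.74 and 1.31. The 3 of PFKL had -0.58, 0.75 and 1.28, and the 4 of PGK1 -1.17, -1.52, -0.21 and 0.09. For PKM they were -0.90 and 0.80, for PYGM -1.84 and 0.87, and for SUCLG2 1.35 and -0.19. None of these probe sets of DLST, PDHA1, PFKL, PGK1, PKM, PYGM and SUCLG2 passed at an unadjusted p. Of the 82 probe sets 17 end in _s_at and 6 in _x_at, names that the manufacturer gives to probe sets that can also bind related transcripts.

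The differences went with the level of the signal, when all probe sets were sorted into 5 equal bins by mean level. The 11 enzyme probe sets in bin 1, the weakest, had a median log2 fold change of 0.46, against 0.47 for all probe sets of that bin, and in bin 2 the 13 had -0.07, against 0.36. In bins 3, 4 and 5 there were 13, 16 and 29 with medians of -1.06, -1.41 and -1.19, where all probe sets had -0.07, -0.37 and -0.24. The 23 lower probe sets at an unadjusted p under 0.05 were all in bins 3 to 5, with 4, 6 and 13 of them. In bin 5 they were 44.8% of the enzyme probe sets, where 17.4% of all probe sets were lower by the same measure. The share of all probe sets also rose with the level, from 1.26% in bin 1 and 4.8% in bin 2 to 8.94% in bin 3 and 12% in bin 4. With 11 and 13 enzyme probe sets in bins 1 and 2, 0 lower ones there is near that share. The higher probe set of OGDH was in bin 2.

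**Figure D2:**
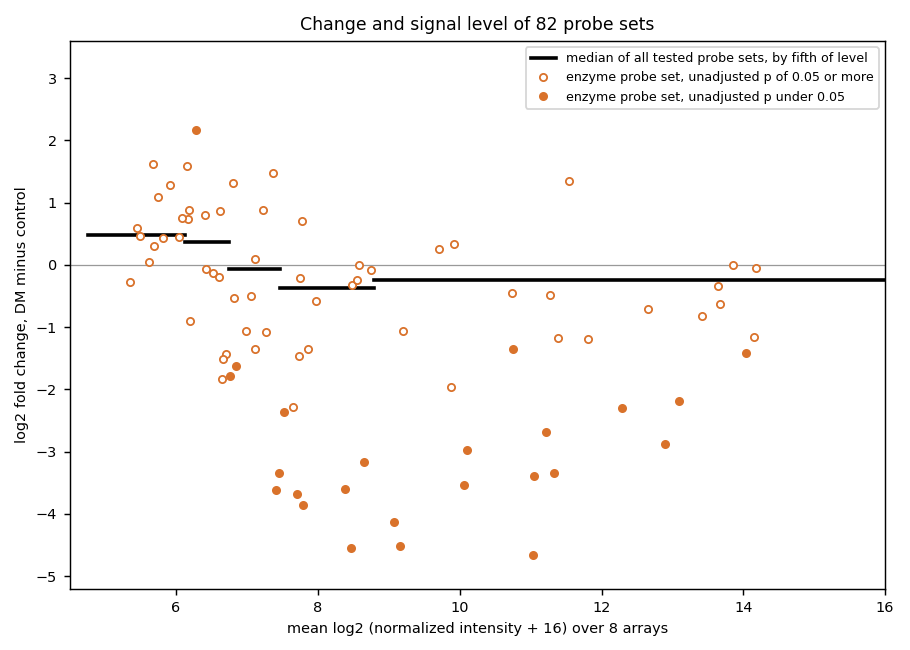
Log2 fold change, DM minus control (y axis), and mean log2 (normalized intensity + 16) over the 8 arrays (x axis) of the 82 enzyme probe sets. Filled points have an unadjusted p under 0.05 from limma, and black bars give the median of all 23836 tested probe sets in each of 5 bins of the level. The filled points below zero lie to the right of a level of 6.75, and the weakest probe sets scatter around the black bars.

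Forms and subunits of 1 enzyme were then compared within each dog. A factor common to an array cancels in such a difference except for weak signals, where the offset of 16 keeps part of it. LDHB minus LDHA, for example, differed by 1.73 with median centring and by 2.50 with the hybridization controls. Quantile normalization and cyclic loess act by signal level, so their effect need not cancel, for strong signals either. Of 14 such pairs 10 had a lower difference in DM dogs, and in 1 the groups did not overlap. Among all single probe sets 5.85% lay wholly lower and 4.93% wholly higher in DM dogs, so 1 pair in 14 is near the general share. ENO3 minus ENO1 was 1.62 in D5, 2.22 in D6, 1.49 in D7 and 1.75 in D8 among control dogs, and -2.46 in 0292, -2.19 in 0294, 0.09 in 1087 and -0.12 in 1111 among DM dogs. It was 2.94 lower in DM dogs (1.77 ± 0.32 against -1.17 ± 1.34), with an exact permutation test of two-sided p = 0.0286, the smallest possible, and p = 0.200 after Benjamini-Hochberg adjustment over the 14 pairs. The direction was the same in all 4 DM dogs, but the pair did not pass after adjustment. Its size moved with the scaling, from -2.94 after quantile normalization to -2.30 without it and -2.35 with cyclic loess. The groups did not overlap for this pair under the other scalings and offsets or with the mean of all probe sets. Leaving out a dog can hardly make separate groups overlap, so those runs do not test this. The ENO3 probe set used here ends in _x_at, a name given to probe sets that can also bind related transcripts.

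The next pairs had 1 dog out of place. IDH3B minus IDH3A was -1.02 in D5, -0.23 in D6, -1.44 in D7 and -2.85 in D8 among control dogs, and -8.33 in 0292, -3.95 in 0294, -2.72 in 1087 and -3.55 in 1111 among DM dogs, so that D8 fell just below 1087 (exact permutation test, p = 0.0571, adjusted p = 0.200). PFKM minus PFKL was 6.13 in D5, 5.87 in D6, 5.68 in D7 and 6.01 in D8 among control dogs, and 5.70 in 0292, 3.30 in 0294, 3.05 in 1087 and 5.21 in 1111 among DM dogs. Here 0292 fell just within the control range (exact permutation test, p = 0.0571, adjusted p = 0.200). SUCLG1 minus SUCLG2 was 3.40 to 3.62 in D5, D6 and D7, 1.19 in D8, 2.69 in 0292 and 0.72 to 0.90 in the other DM dogs (exact permutation test, p = 0.0571, adjusted p = 0.200). PGAM2 minus PGAM1 was 1.37 to 1.44 in D5, D6 and D7, 0.51 in D8 and -1.63 to 1.17 in DM dogs (p = 0.171 by an exact permutation test, adjusted p = 0.400). PYGM minus PYGL was -4.42 in D8, -2.06 to -1.08 in the other control dogs and -5.96 to -3.65 in DM dogs (exact permutation test, p = 0.114, adjusted p = 0.320). Without D8 the groups did not overlap in 5 pairs, without 0292 in 5, and without both in 8, of which PDHA1 minus PDHB was higher in DM dogs and the others lower. Fewer dogs overlap less often in any measure. Of all single probe sets, 11.6% lay wholly lower and 9.27% wholly higher without D8, 8.37% and 9.25% without 0292, and 15.3% and 14.9% without both.

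**Figure D3:**
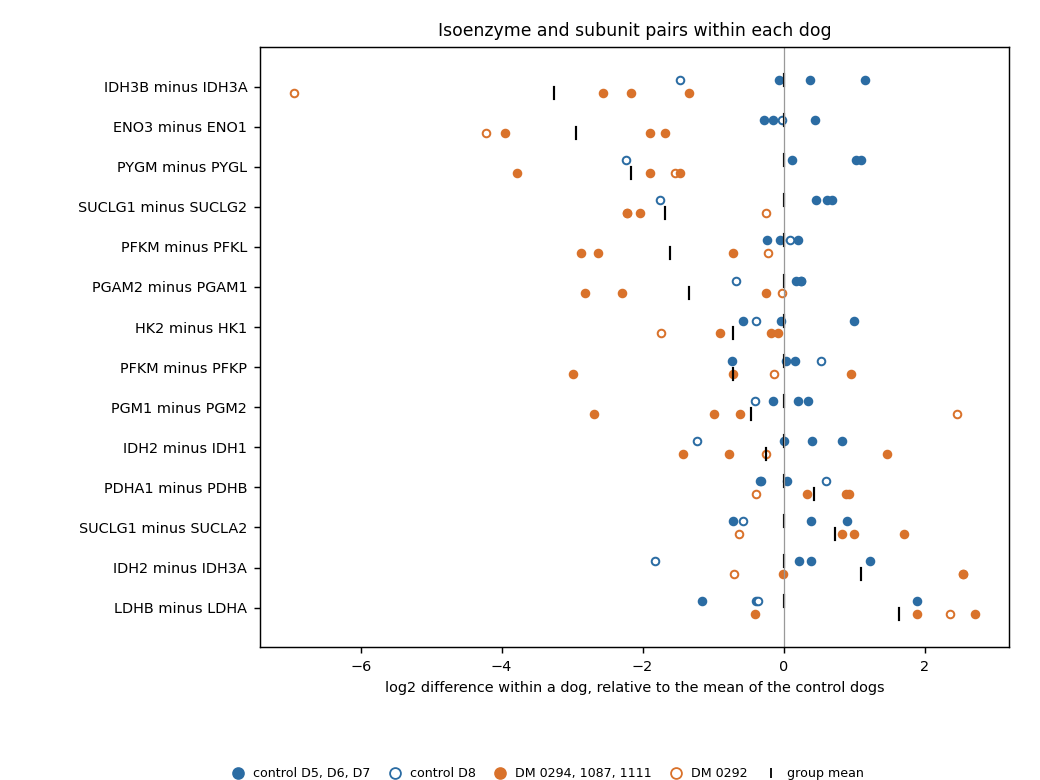
Log2 difference between 2 enzyme forms or subunits within each dog, relative to the mean of the control dogs, for 14 pairs. Blue points are control dogs and orange points DM dogs, open symbols are D8 and 0292, and black ticks are group means. For ENO3 minus ENO1 all 4 DM dogs lie below all 4 control dogs, and for IDH3B minus IDH3A control dog D8 lies just below DM dog 1087.

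Genes next to these enzymes were taken from a list of carriers, shuttles, control enzymes and regulators. Of 69 listed neighbours and regulators 40 were found by their symbol, and the array may hold others under no symbol. Of these 28 had lower and 12 higher means, with a median log2 fold change of -0.87. At an unadjusted p under 0.05 from limma 11 were lower, against 8.87% of all probe sets, and 1 was higher, against 7.84% (0 at an adjusted p). MPC2, a subunit of the mitochondrial pyruvate carrier, gave -3.09 (SE 0.77, adjusted p = 0.0913), and its partner MPC1 had -1.09 (SE 0.56, adjusted p = 0.348), both with no overlap. GOT1, the cytosolic aspartate aminotransferase, had -3.81 (SE 0.78, adjusted p = 0.0663), and GOT2, the mitochondrial one, -1.96 (SE 0.58, adjusted p = 0.130). In succinate dehydrogenase, the enzyme shared by the citrate cycle and the respiratory chain, SDHC had -2.90 (SE 0.71, adjusted p = 0.0884), while SDHD had -0.05 (SE 0.54, adjusted p = 0.974). GYG1, the protein primer of glycogen, had -1.61 (SE 0.61, adjusted p = 0.212), and PHKG2, a catalytic subunit of phosphorylase kinase, -2.37 (SE 0.61, adjusted p = 0.0970). PDK4, a kinase that inhibits the pyruvate dehydrogenase complex by phosphorylation, was the 1 higher gene, with no overlap and 2.29 (SE 0.63, adjusted p = 0.112). Enzymes that set the level of fructose bisphosphates had higher means in 4 of 5 genes, with a median of 0.91 and 0 at an unadjusted p. Among them FBP1, the liver fructose bisphosphatase, had 1.70 (SE 0.91, adjusted p = 0.369), and PFKFB3, which makes an activator of phosphofructokinase, 1.13 (SE 0.62, adjusted p = 0.383). Of 6 measured regulators, PPARA, a receptor that turns on fatty acid use, had -1.45 (SE 0.61, adjusted p = 0.257), and PPARGC1A, a coactivator of mitochondrial genes, -1.80 (SE 0.81, adjusted p = 0.287). Of 7 genes of the pentose phosphate path 3 were found by their symbol (PGD, RPE and TKT), and 0 of them passed at an unadjusted p. The paper lists transaldolase 1, a further enzyme of this path, as lower in DM dogs.

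In each dog the median of the 41 genes was set against the mean of the control dogs. It was 0.10 in D5, 0.10 in D6, -0.03 in D7 and -0.15 in D8, and -1.51 in 0292, -0.65 in 0294, -0.57 in 1087 and -0.59 in 1111. DM dogs were thus all below control dogs after quantile normalization, with 0292 apart. Without quantile normalization the 4 control dogs were at -0.03 to 0.12 and the DM dogs at -1.44 to -0.36. With median centring the groups overlapped, as D8 was at -0.40 and 1111 at -0.32. With arrays scaled to the hybridization controls D8 was at -1.56, next to 1111 at -1.67, and the other control dogs at 0.49 to 0.75. The median log2 fold change of the 41 genes kept its sign under each scaling. Its difference from the median of all probe sets was -0.77 after quantile normalization, -0.97 without it, -0.97 with median centring, -0.85 with cyclic loess and -1.29 with the hybridization controls. Single genes did turn. With the hybridization controls, where all probe sets had a median of -1.65, 39 of the 41 genes had lower means, and SUCLG2 turned from 1.35 to -0.97, ALDOC from 0.87 to -0.86 and PKM from 0.80 to -0.69, with HK1, PCK1, GYS2 and PYGL turning as well. FH had 0.11 without quantile normalization. When arrays were scaled to the hybridization controls, 56 of the 82 probe sets were lower at an unadjusted p under 0.05, against a background of 45.2%. LDHB and OGDH stayed higher under all 5 scalings.

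**Figure D4:**
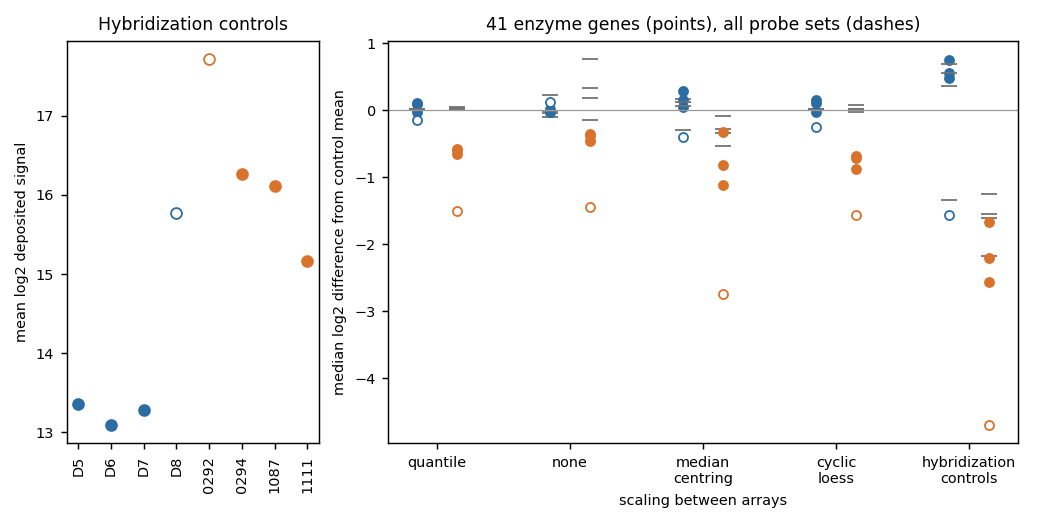
Left, mean log2 deposited signal of the 18 hybridization control probe sets in each dog. Right, median log2 difference of the 41 enzyme genes from the mean of the control dogs (points) and the same for all tested probe sets (dashes) under 5 scalings between arrays, with control dogs in blue, DM dogs in orange and open symbols for D8 and 0292. The DM points lie below the control points after quantile normalization, and D8 lies close to 1111 when arrays are scaled to the hybridization controls.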

How the data were processed

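Left ventricular RNA of 4 control and 4 DM dogs was measured on 1 Affymetrix Canine Genome Array per dog. The authors summarised each scan with MAS 5.0, and the deposited values are linear signal intensities, scaled per array to a mean of 500 after trimming 2% at either end (500.04 to 500.13). The methods also name RMA, but the table has the linear scale of MAS 5.0 and no common distribution across arrays. Of 23913 probe sets, 77 controls of the manufacturer were left out of the tests.

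Arrays were set to a trimmed mean of 500 and quantile normalized over the 23836 tested probe sets, 16 was added and log2 was taken. Groups were compared with limma 3.58.1 (R 4.3.3) in two-sided tests adjusted by Benjamini-Hochberg, at 0.05. The offset of 16 narrows the differences of weak probe sets. Single measures were compared by exact permutation over 70 assignments. Symbols come from the array's annotation, and 10549 probe sets have 1 symbol. Of 58 enzyme symbols sought, 41 were found. Dogs are the replicates, and the number of arrays limits the precision. Values in every dog are given, in each of 5 role groups, for the 4 genes with the smallest p and the gene with the largest positive value, and other genes were chosen after their values were seen. The members, lists, pairs and tests were chosen with earlier results of these data known. The steps were tested on simulated data. The alternatives were other scalings, other offsets, a filter on weak probe sets, the mean of all probe sets of a gene, array weights, the methods' t-test (nominal P of at most 0.01 and at least 2-fold, also adjusted) and leaving dogs out.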

Additional observations from a re-analysis of the deposited data

Results flagged for a closer look

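For the 41 genes, each group of 4 dogs was examined for a single dog whose gap to the next one took up more than 0.829 of the group's range. In 10 of 82 groups a dog stood apart in this way, where chance gives about 1 in 20 groups, and 5 of the 10 were DM dog 0292. It was low in DLD (11.17, other DM dogs 13.41 to 13.74), FH (12.43 against 14.20 to 14.42) and PFKL (5.63 against 8.25 to 8.54). It was high in HK2 (6.42 against 4.70 to 4.91) and PKM (7.85 against 6.39 to 6.54). DM dog 1111 was high in PFKM (13.46 against 11.32 to 11.61). Control dog D8 was low in ENO1 (10.31, other control dogs 11.17 to 11.22) and high in SUCLG2 (12.56 against 10.12 to 10.43). Control dog D7 was high in LDHB (7.34 against 4.52 to 4.91) and low in LDHD (5.78 against 8.17 to 8.42).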

How the results depend on the processing

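The count of member probe sets lower in DM dogs at an unadjusted p (23) was 19 to 33 under the other alternatives, 19 to 26 of these without single dogs, but 56 with the hybridization controls. The number of probe sets called over the whole array (4 at an adjusted p under 0.05) was 0 without quantile normalization (limma, 1687 lower and 2565 higher at an unadjusted p), 0 without offset (1898 and 1881), 237 with median centring, 24 with cyclic loess, 7675 with the hybridization controls, 445 with an offset of 64, 922 with array weights, 22 with the methods' t-test, 0 to 472 without single dogs (323 without D8, 472 without 1111) and 955 without D8 and 0292 together. Of the 82 enzyme probe sets, 12 were among them with median centring, 14 with an offset of 64, 16 with array weights and 48 with the hybridization controls, and 0 with the methods' t-test (25 lower at an unadjusted p) and with cyclic loess in limma (25). The array weights were 2.62 to 3.21 for D5, D6 and D7 and 0.27 to 0.73 for the other dogs. The median log2 fold change of the 41 genes (-0.71) was -1.22 with median centring, -2.94 with the hybridization controls and -1.07 among probe sets above the median level, and -0.88 to -0.72 without single dogs. The number of enzyme pairs without overlap (1) was 2 without quantile normalization, with median centring, cyclic loess, the hybridization controls, an offset of 64 and the mean of all probe sets, 1 to 5 without single dogs and 8 without D8 and 0292 together. The number of neighbouring genes lower at an unadjusted p (11) was 31 with the hybridization controls. Among the 23 genes with values for every dog, PYGL turned to -0.21 with median centring and to -0.056 without 1087 (-0.056 to 0.66 without single dogs), and with the hybridization controls ALDOC turned to -0.86, GYS2 to -1.05, PYGL to -2.005 and PCK1 to -1.15. The cause of these moves was not tested. No paired analysis was possible because the labels carry no numbers shared between the groups. Weak signals limit HK1, HK2, GYS2, OGDH and LDHB, which were not shown to lie above background in either group. They also limit the sizes of the decreases of PGAM2, TPI1, GAPDH and IDH3B, where 1 or more DM dogs were at levels of the lowest bin.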
